A study of Rattus norvegicus with 6 samples.

Results

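The transcripts of the myosin heavy and light chain isoforms were examined in normal and diabetic diaphragm. The genes were Myh1, Myh2, Myh3, Myh4, Myh7, Myl1, Myl2, Myl3 and Mylpf, chosen by name from the heavy and light chains of skeletal muscle myosin. Myh8 and Myh13, which also encode heavy chains of skeletal muscle, were not members and are given with other myosin genes. The choice was made with earlier results of these data known. Each member was read through every probe set that the platform annotation gives to that gene alone. All 9 genes were found, with 15 of the 15923 probe sets on the array. Mylpf is listed under its current symbol Myl11, with the same gene identifier, and 2 further probe sets that the annotation shares between Myh7 and Myh6, or between Myh2, Myh1 and Myh8, were not counted as members.

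The tissue was the left costal hemidiaphragm of male Wistar rats, with 1 array per rat and no pooling. The 3 normal rats had received citrate buffer without drug at 8 weeks of age, and the 3 diabetic rats had received a single intraperitoneal dose of 60 mg/kg streptozotocin, which destroys the insulin-secreting beta cells, at the same age. Muscle was taken 4 weeks later from anesthetized rats of both groups after a night without food, and the diabetic rats had no insulin or other glucose-lowering treatment. The effects of diabetes and of the toxin itself cannot be told apart in this design. RNA came from whole muscle, so that fewer cells of a type and less RNA per cell cannot be told apart either.

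Myosin is the motor of the thick filament, and each molecule holds a pair of heavy chains, each with 1 essential and 1 regulatory light chain at its neck. In adult rat muscle, Myh7 encodes the heavy chain of slow type I fibres, and Myh2, Myh1 and Myh4 encode those of the fast types IIa, IIx and IIb, in ascending order of shortening speed, whereas Myh3 encodes the embryonic chain, which is used in developing and regenerating fibres. Myl1 and Mylpf encode the essential and regulatory light chains of fast fibres, and Myl3 and Myl2 those of slow fibres and of heart ventricle. The diaphragm is a mixed muscle that contracts throughout life and holds fibres of all adult types.

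Expression was measured as the MAS 5.0 signal, an intensity on a linear scale that the authors scaled on each array, and a brighter signal of 1 gene than of another does not mean that it was more abundant. Differences were tested with limma on log2 signals, diabetic minus normal, with Benjamini-Hochberg adjustment over the 9519 probe sets with a mean signal above 105.8, and a probe set was called higher or lower at an adjusted p under 0.05. Of these, 314 were higher and 331 were lower, or 6.78% in all. Signals did not overlap between the groups for 29.6% of them, and 23.9% had an unadjusted p under 0.05. The 6 arrays had median signals of 167.1 to 180.5, and their number limits the precision. All 6 skeletal muscle markers were bright, with a summed signal of 79144 to 99552 in normal and 72335 to 100670 in diabetic muscle, and none of them passed the test. The 8 cardiac markers summed to 561 to 710.2 in normal and 452.4 to 613.6 in diabetic muscle. Of these 8, only 2 lay above the filter, and Myh6, the atrial heavy chain, had signals of 64.4 to 99.4 over the 6 rats, although Myh7, Myl2 and Myl3 are also heart genes.

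Among the myosin isoforms, 1 probe set was lower in diabetic diaphragm, that of Myh4, and 0 were higher by limma's test, with 1 higher at an unadjusted p under 0.05, that of Myh3. All 15 probe sets lay above the signal filter. The share called was thus 1 of 15, against 6.78% of all tested probe sets in either direction, 3.48% lower and 3.3% higher. The 3 normal and 3 diabetic signals overlapped for 13 of the 15. They were separate with diabetic lower for 1 probe set (14.4% of all tested probe sets) and separate with diabetic higher for 1 (15.2%). The group means lay within 1.5-fold of each other for 12 of the 15, and the median log2 change was -0.067, against 0.0034 over all tested probe sets. The median was -0.16 over the 9 fast probe sets and 0.12 over the 5 slow ones, 5 of the 9 being those of Myh1.

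**Figure D1:**
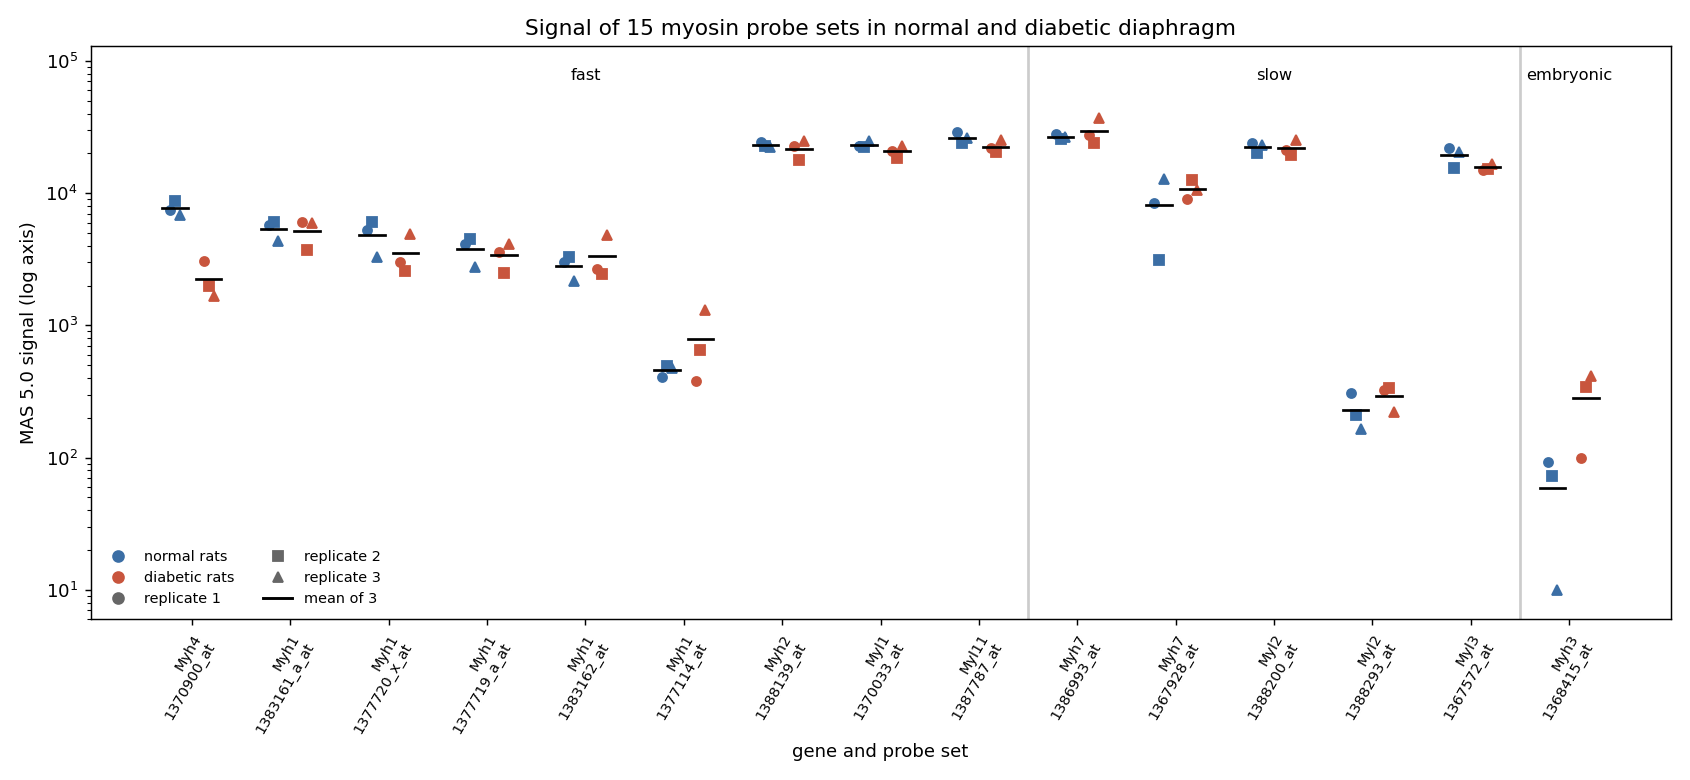
MAS 5.0 signal, on a log axis, of the 15 probe sets of 9 myosin genes, grouped as fast, slow and embryonic. Each point is 1 rat, blue for normal and red for diabetic, with its shape giving the replicate number and each bar the mean of 3. The groups are separate for Myh4, where the means are 7691 and 2234, and for Myh3, and overlap for the other 13.

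Myh4, the type IIb heavy chain, had signals of 7495, 8705 and 6875 in the normal rats and of 3051, 1975 and 1678 in the diabetic rats. Every diabetic rat lay below every normal rat, and the highest diabetic signal was under the lowest normal signal by a wide margin. The mean fell from 7691 ± 931 (SD, n = 3) to 2234 ± 722 (SD, n = 3), which left 29.1% of the normal mean. On the log2 scale, on which all changes below are given as diabetic minus normal, the change was -1.82 (SE 0.21, 95% interval -2.30 to -1.35, adjusted p = 0.0017 from limma), and it ranked 33 among the falls of the 9519 probe sets. In 6 fits that each omit 1 rat, the fold change ranged from 3.06-fold to 4.21-fold lower and the adjusted p from 0.00091 to 0.0088, so that no single rat decided the call. Myh4 has 1 probe set on the array, and no second probe set was there to compare.

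The markers of other cells in the muscle moved unequally. The summed signal of 6 fibroblast markers was 43162 to 47339 in normal and 21918 to 23046 in diabetic muscle, with 4 of 6 lower (Col1a1, Col1a2, Col3a1 and Lum, of which the study had itself listed the 3 collagens from these arrays) and 0 higher, and that of 6 smooth muscle markers was 3075 to 3614 and 2014 to 2621, with 2 of 5 tested lower and 0 higher, where 3.55% of all named genes tested were lower and 3.46% higher. The fibroblast markers Dcn and Pdgfra did not pass, with log2 changes of -0.11 and -0.34 (adjusted p = 0.68 and 0.33 from limma). Dcn was bright, with means of 13593 in normal and 12669 in diabetic muscle, so that the sum did not fall through every marker. Of 4 endothelial markers, 1 was higher and 1 lower, and their sum was 2508 to 2648 in normal and 2877 to 3140 in diabetic muscle. None of the tested adipocyte, macrophage, Schwann cell or red blood cell markers passed limma's test (1, 4, 3 and 2 genes, of which 1 Schwann cell marker was lower at an unadjusted p under 0.05), and the 6 liver markers lay below the filter. The part of these markers in the difference of Myh4 was not tested.

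Myh2, the type IIa heavy chain, had signals of 24591, 22742 and 22179 in normal and of 22606, 17957 and 24701 in diabetic muscle. The groups overlapped, and the diabetic rats held both the lowest and the highest of the 6 values. The log2 change was -0.10 (SE 0.15, 95% interval -0.43 to 0.22, adjusted p = 0.72 from limma), and its interval does not meet that of Myh4. The probe set shared by Myh2, Myh1 and Myh8 had a log2 change of -0.25 (adjusted p = 0.28 from limma), with signals of 17718 to 19725 in normal and 14654 to 17724 in diabetic muscle.

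Myh1, the type IIx heavy chain, had 5 probe sets, and none passed the test. They did not give 1 answer on direction, with log2 changes from -0.48 to 0.60, although all 5 intervals included 0. They are not 5 separate sources. The same expressed sequence tag gave 1383161_a_at and 1383162_at, and another gave 1377720_x_at and 1377719_a_at. On the brightest, 1383161_a_at, the signals were 5713, 6007 and 4386 in normal and 6024, 3687 and 5901 in diabetic muscle. These values interleave, and the log2 change was -0.07 (SE 0.21, 95% interval -0.53 to 0.40, adjusted p = 0.88 from limma). The probe set 1377720_x_at, whose suffix marks probes that may match other transcripts, lay lowest, with signals of 5281, 6021 and 3295 in normal and 3017, 2585 and 4900 in diabetic muscle (log2 change -0.48, adjusted p = 0.30). The dimmest, 1377114_at, lay highest, at 406.0, 491 and 473 in normal and 382, 647 and 1318 in diabetic muscle (log2 change 0.60, adjusted p = 0.34). That difference came largely from diabetic replicate 3: without it the ratio of means went from 1.71 to 1.13. The other 2 probe sets had log2 changes of -0.16 and 0.18 (adjusted p = 0.71 and 0.72), with overlapping groups.

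In the RefSeq annotation of the rat genome (assembly GRCr8) Myh3, Myh2, Myh1, Myh4, Myh8 and Myh13 follow each other on chromosome 10 in this order, with no other protein-coding gene between them, whereas Myh7 lies beside Myh6 on chromosome 15. The only change called in this cluster was thus that of a gene whose neighbour on the one side, Myh1, did not pass. The neighbour on the other side, Myh8, the perinatal heavy chain, was too dim to be tested, under the filter, with signals of 31.0, 37.6 and 41.3 in normal and 63.2, 72.2 and 88.4 in diabetic muscle, where the groups did not overlap. Myh13, the extraocular heavy chain, was at the bottom of the range, at 4.90 to 40.4 in all 6 rats.

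The 250 bases before the start sites of the 3 adult fast genes and of Myh3 are shown from RefSeq (GRCr8), since they are neighbours of which 1 was called. They are Myh2, chr10:52355489-52355738; Myh1, chr10:52384662-52384911; Myh4, chr10:52421898-52422147; and Myh3, chr10:52268935-52269184, all on the plus strand and written 5′ to 3′. Capitals mark the longest run that Myh2, Myh1 and Myh4 have in common.
Myh2: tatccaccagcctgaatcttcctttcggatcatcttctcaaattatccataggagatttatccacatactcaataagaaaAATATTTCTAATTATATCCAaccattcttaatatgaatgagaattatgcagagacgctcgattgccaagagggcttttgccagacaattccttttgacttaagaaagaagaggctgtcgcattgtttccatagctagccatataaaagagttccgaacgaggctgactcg
Myh1: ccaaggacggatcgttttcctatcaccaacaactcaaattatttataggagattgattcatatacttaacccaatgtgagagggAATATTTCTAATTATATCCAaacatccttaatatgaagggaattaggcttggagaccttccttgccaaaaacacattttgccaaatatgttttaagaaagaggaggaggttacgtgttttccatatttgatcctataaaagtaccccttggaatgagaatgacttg
Myh4: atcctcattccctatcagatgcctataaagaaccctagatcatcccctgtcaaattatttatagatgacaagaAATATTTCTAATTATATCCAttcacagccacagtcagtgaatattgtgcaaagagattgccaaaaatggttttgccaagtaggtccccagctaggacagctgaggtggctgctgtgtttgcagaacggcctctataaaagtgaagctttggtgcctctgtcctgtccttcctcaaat
Myh3: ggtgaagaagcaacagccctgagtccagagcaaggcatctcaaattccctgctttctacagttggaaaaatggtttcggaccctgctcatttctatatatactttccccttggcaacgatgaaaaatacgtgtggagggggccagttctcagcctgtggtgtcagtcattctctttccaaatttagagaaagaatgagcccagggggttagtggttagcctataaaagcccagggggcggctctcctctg

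The run in capitals, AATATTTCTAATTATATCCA, is 20 bases long and starts 170 bases before the start site in Myh2, 166 in Myh1 and 177 in Myh4, and it is absent from the window of Myh3. On both strands, it was found in 5 of 33469 windows of the same 250 bases (0.0149%): those of these 3 genes and 2 windows of LOC102555216, a non-coding RNA gene on the opposite strand whose windows overlap that of Myh4. The letters TATAAAA occurred once in each of the 4 windows and in 5.38% of all windows. The letters CANNTG, the E-box bound by myogenic factors, occurred at 2 places in Myh4, at 1 in Myh3 and at none in Myh2 and Myh1, and in 65.5% of all windows. In pairwise alignments, Myh2 and Myh1 had 73.2% of the 250 bases in common, Myh2 and Myh4 64.4%, and Myh1 and Myh4 62.0%. Pairs with Myh3, which has no long run in common with the others, gave 60.4% to 61.6%, so that the last 2 values are close to those of a pair without the run. The proximal sequence of the only gene called here thus has the same run as that of both adult fast genes that did not pass. These matches are descriptions of the sequence alone, since no binding was measured.

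Myh7, the slow heavy chain, had signals of 27945, 25591 and 26629 in normal and of 27349, 24160 and 37015 in diabetic muscle on its brighter probe set, 1386993_at. The groups overlapped, and diabetic replicate 3 stood above the rest. Its array also had the highest maximum signal of any gene, at 46366, against 30110 to 38490 on the other arrays. The log2 change was 0.12 (SE 0.16, 95% interval -0.24 to 0.48, adjusted p = 0.71 from limma), and without that rat it was -0.055. The second probe set, 1367928_at, was made from the same expressed sequence tag, but varied far more among normal rats, at 8428, 3111 and 12775, against 9056, 12624 and 10608 in the diabetic rats. Its coefficient of variation was 59.7% in normal muscle, compared with 4.42% for the brighter probe set, and all diabetic values lay within the normal range (log2 change 0.62, adjusted p = 0.39). The probe set shared by Myh7 and Myh6 had a log2 change of 0.10 (adjusted p = 0.75), with diabetic replicate 3 again highest, at 31276.

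Myh3, the embryonic heavy chain, was dim, with signals of 93.4, 72.3 and 9.90 in normal and of 99.3, 342 and 412 in diabetic muscle. Every diabetic rat lay above every normal rat, but diabetic replicate 1 lay only just above normal replicate 1. The means were 58.5 ± 43.4 (SD, n = 3) and 285 ± 164 (SD, n = 3), a ratio of 4.86 that ranged from 3.43 to 6.92 over such fits, the former without normal replicate 3 and the latter without normal replicate 1. The log2 change was 2.57 (SE 0.79, 95% interval 0.81 to 4.33) and ranked 8 among the rises, yet it missed the threshold (adjusted p = 0.081 from limma, unadjusted p = 0.0084). The normal mean lay below the filter level of 105.8, so that this probe set was tested only because its diabetic signals were higher, and its size is imprecise. When 64 was added to every signal before logs were taken, the log2 change was 1.44 and the adjusted p by limma was 0.0499. With no filter the adjusted p was 0.155. In the 6 fits that each omit 1 rat it was 0.064 to 0.22, so that Myh3 passed in none of them.

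**Figure D2:**
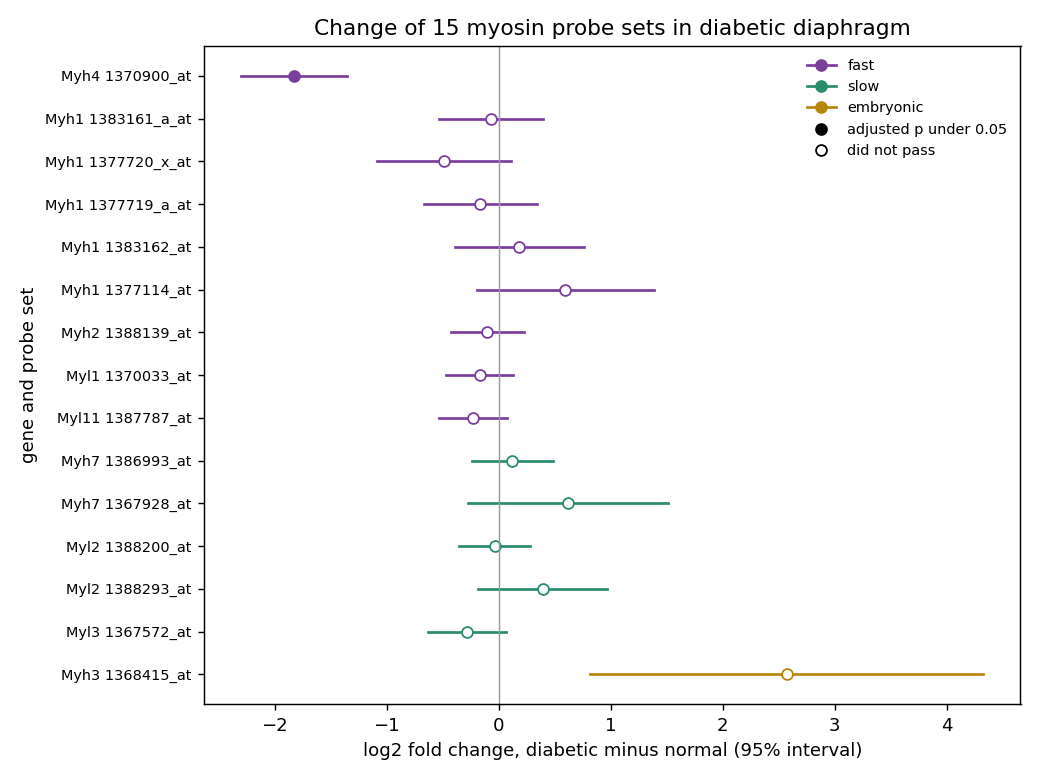
Log2 change, diabetic minus normal, of the 15 myosin probe sets, with 95% intervals from limma that are not adjusted for the number of probe sets. Filled points passed at an adjusted p under 0.05 and open points did not. Myh4 lies at -1.82, Myh3 at 2.57 with the widest interval, and the intervals of the other 13 include 0.

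The light chains lay close together in both groups. Mylpf, the fast regulatory light chain, had signals of 28981, 23858 and 26303 in normal and of 21856, 20530 and 25267 in diabetic muscle. The lower 2 diabetic values lay below all normal values, and the groups overlapped (log2 change -0.23, SE 0.14, adjusted p = 0.35 from limma). Myl1, the fast essential light chain, had signals of 22576, 22181 and 24952 in normal and of 20733, 18404 and 22947 in diabetic muscle (log2 change -0.17, 95% interval -0.47 to 0.13, adjusted p = 0.48). The groups again overlapped through diabetic replicate 3.

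Of the slow light chains, Myl2, the regulatory chain, had signals of 24108, 20265 and 23174 in normal and of 21320, 19555 and 25181 in diabetic muscle. These values interleave, and the log2 change was -0.04 (SE 0.14, 95% interval -0.35 to 0.28, adjusted p = 0.91 from limma). A dim second probe set of Myl2 ranged from 166 to 310 in normal and from 222 to 335 in diabetic muscle (log2 change 0.39, adjusted p = 0.40). Myl3, the slow essential chain, had signals of 22111, 15401 and 20369 in normal and of 15003, 15313 and 16758 in diabetic muscle. The 2 lowest diabetic values lay below the lowest normal value, and the groups overlapped (log2 change -0.28, SE 0.16, 95% interval -0.63 to 0.06, adjusted p = 0.30). For the brightest probe sets of all 4 light chains, the 95% intervals, which are not adjusted for the number of probe sets, thus included 0. They reached no lower than -0.63 and no higher than 0.28 on the log2 scale. The signals of the brightest probe sets of Myh2, Myh7 and each light chain lay above the 99th percentile of the array, where the response of probes can flatten, and how far this limits the differences was not tested.

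Differences of log2 signal between isoforms within an array do not depend on how that array was scaled, and show unequal change rather than the order of levels. The difference of Myh7 over Myh4 was 1.90, 1.56 and 1.95 in normal and 3.16, 3.61 and 4.46 in diabetic rats, a mean shift of 1.94. Similarly, Myh2 over Myh4, at 1.71, 1.39 and 1.69 in normal and 2.89, 3.18 and 3.88 in diabetic rats, shifted by 1.72, and Myh1 over Myh4 by 1.76, from -0.53 ± 0.13 (SD, n = 3) to 1.23 ± 0.51 (SD, n = 3). For these 3 pairs the groups did not overlap. All 3 contain Myh4, so that each shift largely repeats its log2 change of -1.82 and they are not separate results. Myh7, Myh2 and Myh1 by themselves changed by 0.12, -0.10 and -0.07. How often other pairs of genes are separate was not computed, and 29.6% of single probe sets were. When Myh4 was not in the pair the shifts were small: 0.22 for Myh7 over Myh2, 0.19 for Myh7 over Myh1 and -0.04 for Myh2 over Myh1. The groups were separate for the first of these and overlapped for the other 2. Among the light chains, Myl2 over Mylpf was -0.27, -0.24 and -0.18 in normal and -0.036, -0.070 and -0.0049 in diabetic rats, a shift of 0.19 with no overlap, although neither gene passed the test by itself. Myl3 over Myl1 shifted by -0.11, with overlap. These differences were not tested, since the genes were chosen with earlier results of these arrays known.

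**Figure D3:**
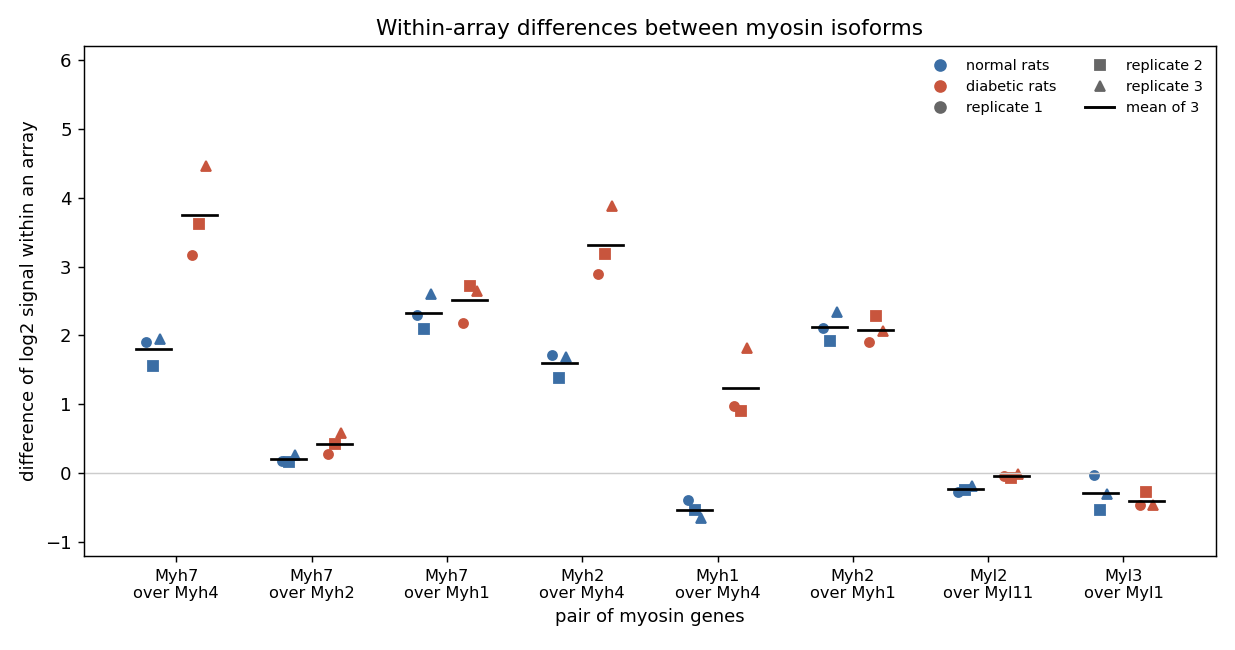
Difference of log2 signal between the brightest probe sets of 2 myosin genes on the same array, for 8 pairs. Each point is 1 rat, blue for normal and red for diabetic, and each bar is the mean of 3. The 3 pairs with Myh4 shift upward by 1.72 to 1.94 in diabetic rats, and the others by -0.11 to 0.22.

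The partners of myosin in fast and slow fibres were described from lists of 11 genes each, all of them on the array and above the filter. Of the 11 fast partners, 4 were lower in diabetic diaphragm, 0 were higher and 7 missed the threshold, against 3.55% lower and 3.46% higher (7.01% in all) among the 7080 named genes tested. All 11 log2 changes were negative, with a median of -0.43, against 0.01 over all named genes. The groups were separate with diabetic lower for 7 of the 11 (14.9% of tested genes). At an unadjusted p under 0.05, 7 were lower and 0 higher.

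Pvalb, the calcium-binding protein parvalbumin that speeds relaxation of fast fibres, had signals of 9975, 13306 and 13978 in normal and of 5435, 4139 and 2329 in diabetic muscle. The study had itself listed Pvalb from these arrays, so that its place in the count is not independent evidence. It was 3.13-fold lower (log2 change -1.72, SE 0.27, adjusted p = 0.0061 from limma), and it was the only one of the 4 to pass with each array left out in turn. Mybpc2, the fast myosin-binding protein C of the thick filament, fell from 16215 ± 1763 (SD, n = 3) to 9785 ± 1013 (SD, n = 3), Casq1, the fast calsequestrin that stores calcium in the sarcoplasmic reticulum, from 11181 ± 542 (SD, n = 3) to 6814 ± 927 (SD, n = 3), and Myoz1, a Z-disc protein of fast fibres, from 15343 ± 2387 (SD, n = 3) to 9382 ± 1298 (SD, n = 3). Each of these 3 was 1.64-fold to 1.66-fold lower, with adjusted p-values by limma of 0.015, 0.017 and 0.031, but they missed the threshold in 2, 3 and 4 of the 6 fits that each omit 1 rat (highest adjusted p = 0.056, 0.056 and 0.11). The fast troponins Tnni2, Tnnt3 and Tnnc2 had log2 changes of -0.32, -0.36 and -0.18 and did not pass, nor did Actn3, the fast alpha-actinin (-0.43, adjusted p = 0.12), or Atp2a1, the fast calcium pump (-0.32, adjusted p = 0.24). Their signals lay at percentiles of 99.80 to 99.91, where the response of probes can flatten, against 98.40 to 99.23 for the 4 that passed. Mylk2 and Tpm1, which did not pass either, lay at 92.6 and 99.74. The log2 change of Tpm1 was -0.47 (adjusted p = 0.077 from limma), and its groups did not overlap. How far brightness limits these changes was not tested.

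Of the 11 slow partners, 1 was higher, 1 was lower and 9 did not pass, against 3.46% higher and 3.55% lower among named genes, with 6 negative and 5 positive log2 changes and a median of -0.01. The gene that rose was Csrp3, a stress-responsive muscle LIM protein, which had signals of 378, 445 and 483 in normal and of 1943, 839 and 6051 in diabetic muscle. It thus varied widely among diabetic rats (log2 change 2.31, SE 0.54, adjusted p = 0.030 from limma), was 1.56 on the log2 scale without diabetic replicate 3, and missed the threshold in 4 of the 6 fits that each omit 1 rat. The gene that fell was Mb, the oxygen-binding protein myoglobin, with signals of 24162, 20757 and 22985 in normal and of 16248, 13490 and 16495 in diabetic muscle (1.47-fold lower, adjusted p = 0.039), which missed it in 5 of those 6 (highest adjusted p = 0.13). The slow troponins Tnnc1, Tnni1 and Tnnt1 had log2 changes of 0.11, -0.09 and -0.24 and did not pass. They lay at percentiles of 99.29 to 99.90, where the response of probes can likewise flatten, although Mb, which was called, lay at 99.72. Pln, phospholamban, had a log2 change of -0.85 and missed the threshold (adjusted p = 0.059). The groups were separate with diabetic lower for 2 of the 11, Mb and Pln (14.9% of tested genes). They were separate with diabetic higher for 1, Csrp3 (15.9%). At an unadjusted p under 0.05, 1 slow partner was higher and 2 were lower.

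**Figure D4:**
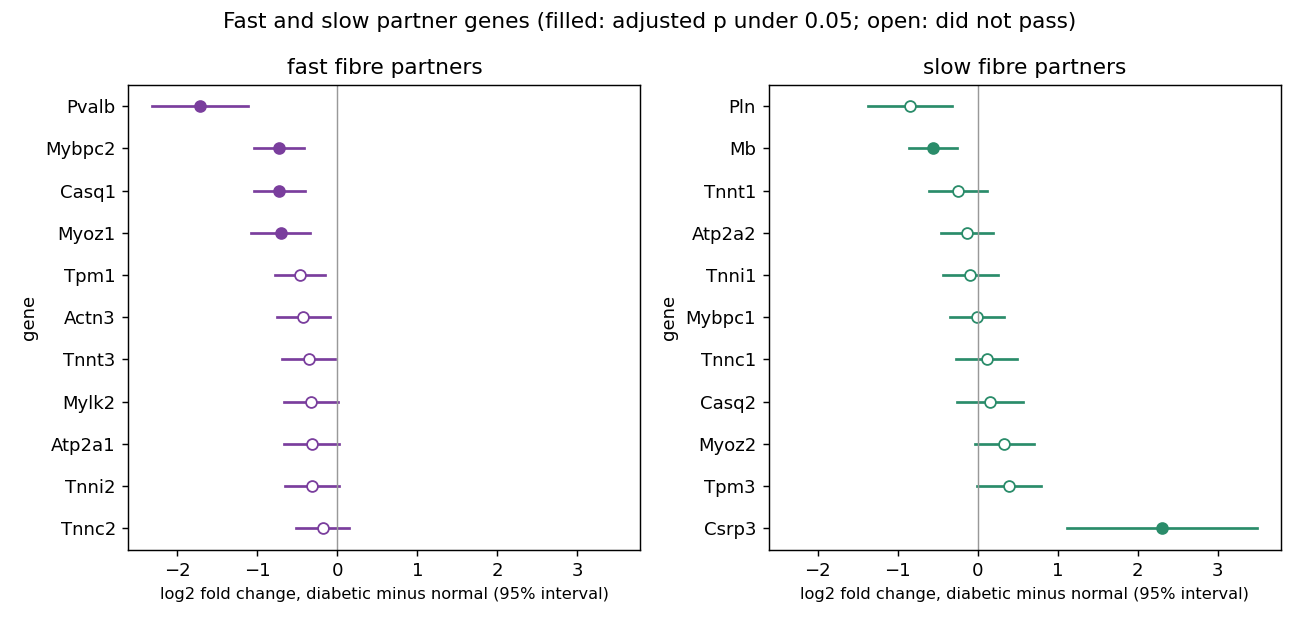
Log2 change, diabetic minus normal, of 11 fast and 11 slow fibre partner genes, with 95% intervals from limma that are not adjusted for the number of genes. Filled points passed at an adjusted p under 0.05. All 11 fast partners lie below 0, with Pvalb lowest at -1.72, whereas the slow partners lie on both sides, with Csrp3 highest at 2.31.

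Genes of thick filament assembly and turnover were named for 12 of 19 in the list, all tested: 2 were higher, 0 were lower and 10 did not pass (3 higher and 0 lower at an unadjusted p under 0.05), against 3.46% higher and 3.55% lower among all named genes tested, with a median log2 change of 0.16. Both that rose are ubiquitin ligase components of atrophying muscle. Trim63, a ligase of the sarcomere known to act on myosin heavy chain, had signals of 3231, 2652 and 1420 in normal and of 8704, 6643 and 9292 in diabetic muscle (3.37-fold, adjusted p = 0.0048). Atrogin-1, encoded by Fbxo32, had signals of 437, 150 and 168 in normal and of 756, 1036 and 526 in diabetic muscle (3.07-fold, adjusted p = 0.024), and missed the threshold in 4 of the 6 fits that each omit 1 rat. The study had itself listed both from these arrays, so that their count is not independent evidence. Unc45b, the chaperone that folds the myosin motor, had a log2 change of 0.02 (adjusted p = 0.96), and Myom1 and Myom2, which cross-link thick filaments at the M-band, had 0.12 and -0.16 (adjusted p = 0.68 and 0.50).

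Among regulators of fibre type, 25 of 33 genes were named and 22 tested, of which 1 was higher, 0 were lower and 21 did not pass (3 higher and 7 lower at an unadjusted p under 0.05), against the same 3.46% and 3.55%, with a median log2 change of -0.15. Rcan1, an inhibitor of the phosphatase calcineurin, rose from 964, 1004 and 1678 in normal to 2189, 2071 and 1942 in diabetic rats (1.70-fold, adjusted p = 0.047 from limma), but missed the threshold in 5 of the 6 fits that each omit 1 rat (highest adjusted p = 0.15). The calcineurin subunits Ppp3ca, Ppp3cb and Ppp3r1 had log2 changes of -0.47, -0.42 and -0.65 and missed the threshold (adjusted p = 0.10, 0.10 and 0.052 from limma). For each of them, every diabetic rat lay below every normal rat. This held for 5 of the 22 regulators tested, against 14.9% of named genes. For 2 of the 22, the groups were separate with diabetic higher, against 15.9%. Of the myogenic factors, Myod1, which is most abundant in fast fibres, had a log2 change of -1.37 (adjusted p = 0.055), with signals of 249, 535 and 490 in normal and of 134, 269 and 105 in diabetic muscle. Sox6, a repressor of slow fibre genes, was dim, at 159 to 338 in normal and 111 to 159 in diabetic muscle (log2 change -0.92, adjusted p = 0.089). Foxo1 and Ppard went the other way, with log2 changes of 1.07 and 0.54, and also missed the threshold (adjusted p = 0.093 and 0.13 from limma). Foxo1 was dim too, at 133 to 153 in normal and 204 to 578 in diabetic muscle, with no overlap. Ppargc1a, which promotes oxidative fibres, lay below the filter and was not tested.

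Of 12 genes of muscle regeneration, the setting in which Myh3 is known to return, 7 were named and 5 tested, and none passed by limma, with a median log2 change of 0.11. Myog, which drives the differentiation of muscle cells, had a log2 change of -0.33 (adjusted p = 0.30), Myf6 -0.08 (adjusted p = 0.76) and Chrna1, the acetylcholine receptor subunit, 0.11 (adjusted p = 0.76). For Chrnd, another receptor subunit, the change was 0.44 (adjusted p = 0.22), with signals of 621, 697 and 417 in normal and 805, 702 and 791 in diabetic muscle, and for 2 of the 5 tested genes, Chrnd and Cdkn1a, every diabetic rat lay above every normal rat (15.9% of named genes tested). Chrng, the embryonic receptor subunit, lay at 8.30 to 15.5 in all 6 rats, below the filter. Of 16 other myosin genes, 11 were named and 7 tested, and none passed, with a median log2 change of -0.06. These included Myh9, Myh10 and Myh11, the chains of non-muscle and smooth muscle myosin (0.10, 0.11 and -0.06), and Myl4, the embryonic and atrial light chain, which was at 376 to 478 in normal and at 481, 601 and 67.9 in diabetic muscle. At an unadjusted p under 0.05, only 1 gene of these last 2 lists was higher, Cdkn1a, an inhibitor of the cell cycle (log2 change 0.60, adjusted p = 0.21), and 0 were lower.

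Of 7071 other genes, those whose log2 signal followed Myh7 most closely over the 6 arrays were Sf3b4, Dph2 and Gon7 (Pearson's r of 0.981, 0.978 and 0.975, across 6 arrays of 2 groups), and 27 genes had r over 0.9. For Myh2, the brightest fast heavy chain probe set, they were Ctf1, Tcf4 and Dnpep (0.984, 0.983 and 0.967), and 25 genes had r over 0.9. These are 6 points in 2 groups, and no test was made.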

How the data were processed

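Total RNA of 6 hemidiaphragms was hybridized to Affymetrix RAE 230A arrays, and the authors deposited 1 MAS 5.0 signal per probe set and array, an intensity on a linear scale. The sources used here state no scaling target or software settings. The mean signal with the extremes trimmed was 500.17 to 500.19 on all 6 arrays, so that all had been brought to the same level. Groups came from the sample titles. The log2 of each signal was taken, after a floor of 1 had replaced 136 lower values. Without 57 control probe sets and without those whose mean lay in the lowest 40% of signals, limma 3.58.1 (R 4.3.3) was fitted with a trend in the variance prior, in place of the study's BAM, which was not used here. Fold changes are ratios of mean signals. A partner gene was represented by its brightest probe set, and 125 of 161 listed genes were matched. Promoters were aligned with Biopython 1.88. The procedure was run on simulated data, where the check was on the size of planted changes and set no limit on false calls.

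The members and lists were chosen with earlier results of these data known. Named are all member probe sets, up to 4 genes per list that passed with the largest change, and, chosen after their values were seen, the listed genes given without a call. Alternatives were quantile or median scaling, offsets of 16 and 64, no filter or the 60th percentile, no trend, no moderation, weighted arrays, a block for the replicate number, fits that each omit 1 rat, other thresholds and gene means.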

Additional observations from a re-analysis of the deposited data

How the results depend on the processing

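The fall of Myh4 kept its direction under all alternatives run and passed under all but the test without moderation (adjusted p = 0.11), under which no probe set of the array passed; its log2 change ranged from -2.07 to -1.64 with each array left out. Of the members, 1 was called higher, Myh3, with an offset of 64, at an adjusted p under 0.1 and at an unadjusted p under 0.05, and 0 lower without moderation; with each array left out 0 were higher and 1 lower. After quantile normalization the log2 changes of Myh2 and Myl2 were 0.010 and 0.059. With each array left out, uncalled changes crossed 0 for Myh2 (-0.20 to 0.030), Myl2 (-0.14 to 0.045), Myh7 (-0.055 to 0.25) and, of Myh1, 1377719_a_at (-0.37 to 0.044), 1383161_a_at (-0.21 to 0.16) and 1383162_at (-0.13 to 0.37).

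Over all probe sets, 200 were higher and 227 lower with no filter, and 562 and 585 at an adjusted p under 0.1. At an unadjusted p under 0.05 the counts were 1163 and 1112, and without moderation 0 and 0. With each array left out, 135 to 226 were higher and 177 to 236 lower. The replicate number does not pair the rats (correlations of same-numbered deviations 0.10, -0.20 and -0.07); with it as a block, 162 were higher and 170 lower, 3 listed genes were lower, and Mb, Myoz1 and Rcan1 did not pass (adjusted p = 0.056, 0.074 and 0.090). Over the partner, thick filament, regulator, regeneration and other myosin lists together, the 4 genes called higher and 5 called lower became 1 and 2 with no filter, 2 and 3 with no trend in the variance prior, 0 and 0 without moderation and 8 and 16 at an unadjusted p under 0.05, 11 were lower at an adjusted p under 0.1, and with each array left out 1 to 3 were higher and 1 to 5 lower. The shift of Myh7 over Myh2 was 0.47 on means over probe sets, which include the variable second probe set of Myh7, 1367928_at. With each array left out it was 0.15 to 0.30, and those of Myh7 over Myh4 and over Myh1 were 1.59 to 2.24 and 0.07 to 0.35. The number of arrays limits the precision, and a gene that did not pass is not shown to be unchanged.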
